A study of Mus musculus with 20 samples.

Results

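Krt5, Krt14, Krt15 and Krt19 are 4 keratin genes of the basal epidermis and its appendages, and they were followed here in keratinocytes of 20 mice, 5 in each of 4 groups. They were taken by symbol from a table of raw read counts and were 4 of the 25719 genes in it, and all 4 were among the 12424 genes with enough reads to test. All mice carried floxed alleles of Cyp11b1, which encodes the enzyme of the last step of corticosterone synthesis, and all mice received tamoxifen. The conditional knockouts (cKO) were K14-CreERTam x Cyp11b1 L2/L2, so that a tamoxifen-inducible Cre recombinase under the Krt14 promoter could delete Cyp11b1 in keratinocytes, and the controls were Cyp11b1 L2/L2 littermates without Cre. Tamoxifen was given for 5 days, either on the skin in ethanol after dry shaving of the back (topical; 20 µl per ear and 100 µl on the back) or into the peritoneum in an oil and ethanol mixture (systemic; 100 µl of 10 mg/ml). On day 6 keratinocytes from ear and dorsal skin were enriched by flow cytometry and bulk RNA was sequenced with SmartSeq II, 1 library per mouse. Route was given together with shaving and vehicle, and these cannot be told apart. Knockout was driven by the promoter of Krt14, one of the genes described here, and whether the transgene carries transcribed Krt14 sequence is not given in the sources used here.

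Keratins build the intermediate filaments of epithelial cells from pairs of a type I and a type II chain. Basal keratinocytes make the type II keratin Krt5 and its type I partner Krt14, and cells that leave the basal layer switch to the pair Krt1 and Krt10. Krt15 is a further type I keratin of basal cells and of the hair follicle bulge, the stem cell niche of the follicle, and Krt19 is a small type I keratin without a tail domain that in hairy skin marks the bulge. Glucocorticoids are known to repress transcription of the basal keratins.

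On GRCm38, Krt14 (ENSMUSG00000045545), Krt15 (ENSMUSG00000054146) and Krt19 (ENSMUSG00000020911) lie on the minus strand of the type I keratin cluster, at chr11:100203162-100207548, chr11:100131758-100135928 and chr11:100140810-100148665. Krt5 (ENSMUSG00000061527) lies in the type II cluster on the minus strand at chr15:101707070-101712898, where a predicted microRNA gene, Gm44323, overlaps it on the plus strand. Keratins resemble each other closely enough for some reads to fit more than 1 gene, so 120 coding bases of exon 1 are shown, taken from the longest run that Krt14 shares with the stress keratin Krt16, with the matching stretch of the other type I members. Small letters are bases identical to Krt14 and capitals are bases that differ from it.
Krt14: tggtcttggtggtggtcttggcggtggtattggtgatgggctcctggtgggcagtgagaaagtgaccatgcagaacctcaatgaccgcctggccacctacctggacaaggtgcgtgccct
Krt15: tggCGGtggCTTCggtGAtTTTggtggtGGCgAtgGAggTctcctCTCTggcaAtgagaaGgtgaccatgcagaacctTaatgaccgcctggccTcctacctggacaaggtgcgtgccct
Krt19: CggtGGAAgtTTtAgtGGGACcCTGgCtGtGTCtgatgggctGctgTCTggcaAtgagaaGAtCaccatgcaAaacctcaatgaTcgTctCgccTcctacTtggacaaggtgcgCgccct
The stretch differed from Krt14 at 27 bases in Krt15 and at 36 bases in Krt19. In Krt16 it was identical to Krt14, within an identical run of 134 bases. Of all 100-base windows of the Krt14 transcript, 2.88% also occurred in Krt16, and Krt16 had between 3.19% and 42.9% of the Krt14 count in these libraries. For Krt5 3.81% of the windows were shared, with Krt6a, Gm44323 and Gm5478, and for Krt15 and Krt19 none. Of 50-base windows, 14.4% were shared for Krt14 (with Krt16 and Krt17), 12.2% for Krt5, 0.666% for Krt15 and none for Krt19. Read length and the counting of reads that fit several genes are not given in the sources used here, so a part of the Krt14 and Krt5 counts is uncertain.

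Library totals ran from 11.6 to 50.1 M counts, and the 4 genes together took between 5.65% and 9.69% of a library. Cyp11b1 had at most 6 counts in any library and none in 11 of the 20, so the targeted gene could not check the genotype labels. A summed level of 12 satellite-like predicted genes stood above 50 CPM (counts scaled to the depth of the library) in 5 of 5 systemic control libraries, in 1 of 5 systemic cKO libraries (replicate 2) and in no topical library. The TMM factors that scale libraries to each other ran from 0.781 to 1.52, a spread large enough that levels are also given by library total alone where this matters. A keratinocyte marker list summed to between 70830 and 104900 CPM, against at most 33.7 CPM for immune cells, 32.0 CPM for fibroblasts, 34.5 CPM for melanocytes and 39.1 CPM for sebaceous gland. In cKO mice the immune sum ran from 7.27 to 12.7 CPM in topical and from 16.65 to 33.7 CPM in systemic libraries.

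Averaged over libraries scaled by their total, Krt14 ranked 1, Krt5 ranked 3 and Krt15 ranked 9 among all genes by mean CPM, while Krt19 ranked 10133. Per transcript length, group means of Krt14 ran from 20150 to 31160 RPKM (reads scaled to depth and transcript length), those of Krt5 from 8308 to 11770, those of Krt15 from 5144 to 12260 and those of Krt19 from 0.960 to 1.59. Krt14 was thus the most abundant of the 4 per length in every group mean.

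**Figure D1:**
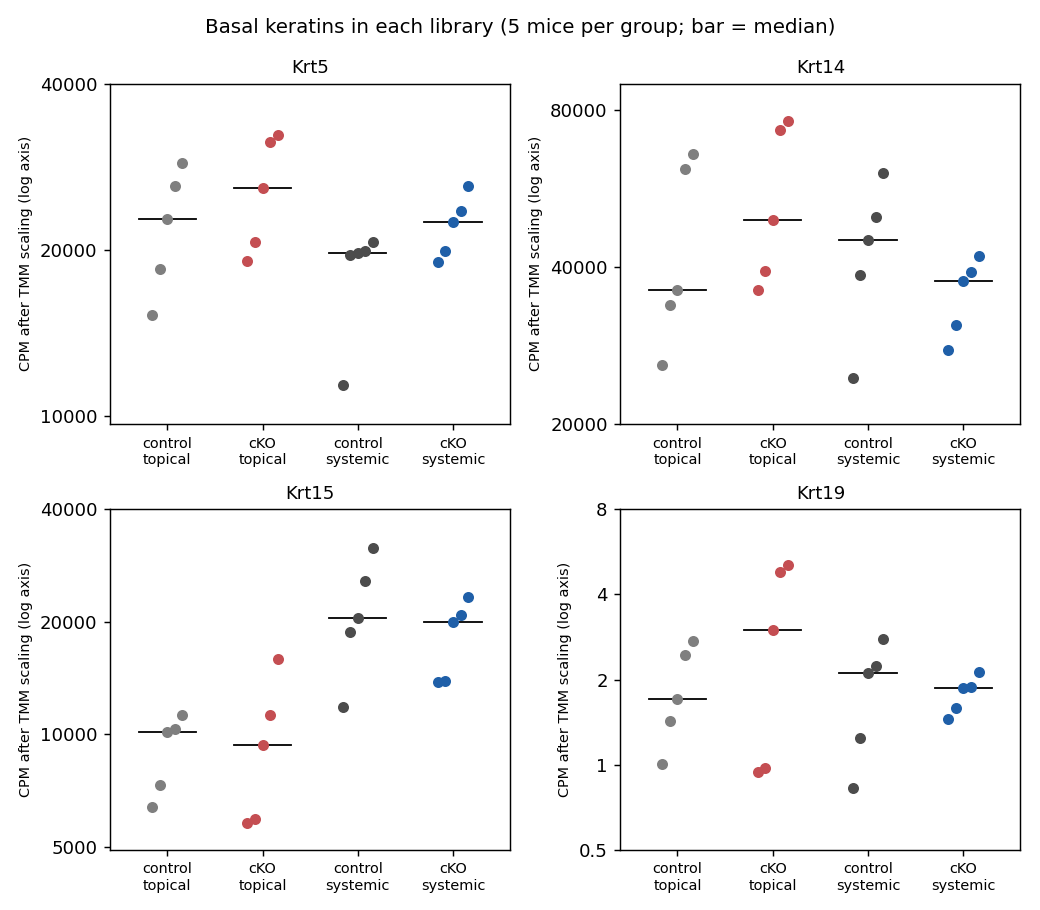
CPM after TMM scaling (log axis) of Krt5, Krt14, Krt15 and Krt19 in each of the 20 libraries, by group; each point is 1 mouse and the bar is the group median. Krt15 in the 5 systemic control libraries (11851 to 31542 CPM) stands above all 5 topical control libraries (6367 to 11258 CPM), whereas the groups overlap for the other 3 genes.

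Krt15 was higher after systemic than after topical tamoxifen, and in control mice this passed the test. In topical controls it stood at 6367, 7330, 10132, 10356 and 11258 CPM. In systemic controls it stood at 11851, 18748, 20459, 25716 and 31542 CPM. The groups did not overlap, and the lowest systemic library was only slightly above the highest topical one. Krt15 was 2.38-fold higher (95% interval 1.52 to 3.74; log2 difference 1.25, SE 0.31, n = 5 against 5; edgeR quasi-likelihood test, Benjamini-Hochberg adjusted p = 0.00922). In this comparison 18.3% of all tested genes were called, at an adjusted p under 0.05, and of the 4 basal keratins Krt15 alone was called, at rank 943 of 12424 by p.

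In cKO mice the same comparison gave a 1.90-fold higher Krt15 level (95% interval 1.21 to 2.99; log2 difference 0.93, SE 0.31, n = 5 against 5), which did not pass the threshold (edgeR adjusted p = 0.0686; 9.22% of all tested genes were called). Topical cKO libraries held 5770, 5936, 9361, 11234 and 15911 CPM, and systemic cKO libraries held 13839, 13842, 19967, 20836 and 23288 CPM. One topical library, replicate 4, lay inside the systemic range, and without it the adjusted p was 0.0251. Scaled by library total alone, that library held 12420 CPM and the lowest systemic cKO library 15264 CPM, the groups no longer overlapped and the difference passed (edgeR adjusted p = 0.0013). The route effects of the 2 genotypes on Krt15 differed by 0.32 on the log2 scale (cKO lower, SE 0.44), which did not pass the test (edgeR interaction, adjusted p = 0.791; 0.25% of all tested genes were called).

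**Figure D2:**
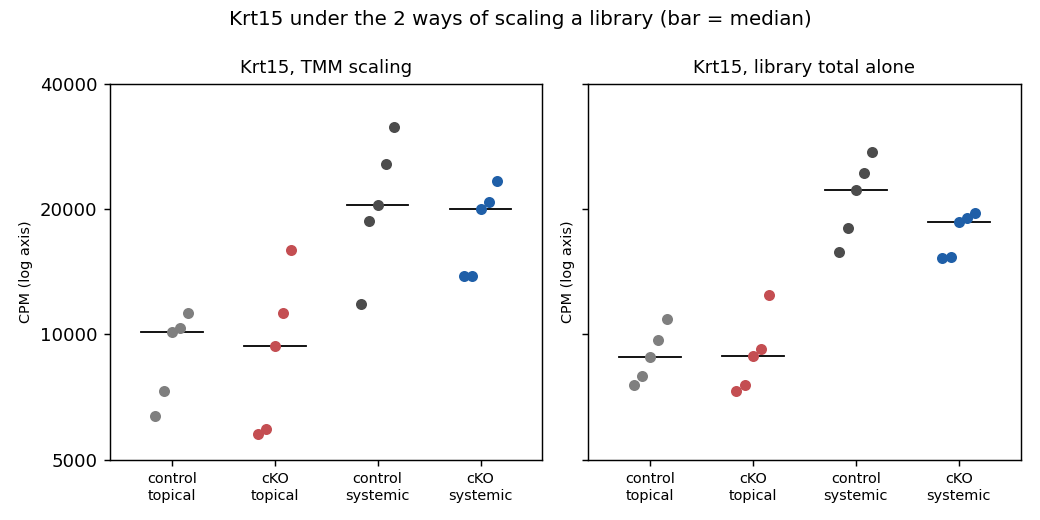
Krt15 CPM (log axis) in each library after TMM scaling (left) and after scaling by the library total alone (right), by group; each point is 1 mouse and the bar is the group median. By library total alone, the highest topical library holds 12420 CPM and the lowest systemic library 15264 CPM.

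A ratio of 2 genes within a library does not depend on the scaling, and the ratio of Krt15 to Krt14 counts separated the routes in both genotypes. In topical controls the ratio was 0.165, 0.171, 0.217, 0.245 and 0.287, and in systemic controls 0.377, 0.484, 0.521, 0.530 and 0.572. In topical cKO mice it was 0.148, 0.151, 0.160, 0.190 and 0.217, and in systemic cKO mice 0.447, 0.477, 0.500, 0.555 and 0.596. Every systemic library lay above every topical library of either genotype. The ratio was 2.32-fold higher in controls and 2.99-fold higher in cKO mice, each with an exact two-sided permutation p = 0.00794, the smallest that 5 against 5 allows, and an adjusted p = 0.0227 over the 20 ratio tests made. Between genotypes the ratio differed by 0.807-fold after topical (exact permutation p = 0.135, adjusted 0.245) and 1.04-fold after systemic tamoxifen (exact permutation p = 0.690, adjusted 0.812), with overlapping groups.

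Satellite-like RNA moved with route in controls, where it was above 50 CPM in all systemic and in no topical library, so that the 2 cannot be told apart there. Systemic control replicate 1 was near that cut, at 79.4 CPM, and the highest topical library held 42.5 CPM. The other systemic controls held 1937 to 11670 CPM. In replicate 1 Krt15 stood at 18748 CPM and the Krt15 to Krt14 ratio was 0.377. With that split as a covariate the log2 difference of Krt15 in controls was 1.10 but did not pass (edgeR adjusted p = 0.939), a fit in which 1 gene of the 12424 was called. Within groups the split varied only among systemic cKO libraries, so its effect in that fit rested on the 1 above 50 CPM. That fit therefore cannot decide whether Krt15 in controls goes with route or with satellite-like RNA. In cKO mice the 4 systemic libraries at or under 50 CPM had Krt15 to Krt14 ratios of 0.447 to 0.596, and the 1 above 50 CPM had 0.477.

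The other genes of the bulge were counted beside Krt15. Of 8 bulge genes besides the keratins, 6 were tested. In controls 1 of these was lower after systemic tamoxifen, Postn, which encodes the matrix protein periostin (log2 difference -2.61, edgeR adjusted p = 0.0168), and none was higher, against 18.3% of all tested genes called, with a median log2 difference of 0.10 against 0.00 over all genes tested. Postn ran from 41.5 to 756 CPM in topical and from 20.7 to 90.4 CPM in systemic controls, groups that overlapped. In cKO mice none was called, against 9.22% of all tested genes, and the median was -0.52, against -0.01 over all genes tested. The summed level of the bulge markers Cd34, Lgr5, Lhx2 and Sox9 ran from 17.0 to 23.7 CPM in topical controls, 21.2 to 30.8 CPM in systemic controls, 21.2 to 43.2 CPM in topical cKO and 13.9 to 25.5 CPM in systemic cKO libraries. Most of that sum was Sox9, with group means of 15.4 to 21.9 CPM. Group means were at most 3.33 CPM for Cd34, 3.26 for Lgr5 and 1.07 for Lhx2. Between routes in controls Cd34 was 0.568-fold and Lgr5 1.72-fold, and neither was called. In bulk samples, a change in the share of cells of a type and a change in RNA per cell cannot be told apart.

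Krt5 and Krt14 levels did not pass the test in any of the 5 comparisons. In topical controls Krt5 stood at 15212, 18468, 22733, 26097 and 28689 CPM, and in topical cKO mice at 19087, 20651, 25871, 31406 and 32246 CPM. In systemic controls it stood at 11381, 19609, 19716, 19919 and 20636 CPM, and in systemic cKO mice at 19052, 19900, 22481, 23475 and 26127 CPM. All pairs of groups compared overlapped, and 1 systemic control library, replicate 6, lay apart below its group. Krt5 was 1.16-fold higher in topical cKO mice (95% interval 0.81 to 1.67; edgeR adjusted p = 0.997; 0.129% of all tested genes called) and 1.22-fold higher in systemic cKO mice (95% interval 0.848 to 1.75; edgeR adjusted p = 0.654; 1.89% of all tested genes called).

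Krt14, the gene whose promoter drives the Cre, had a coefficient of variation of 16.7% to 39.9% within groups, against 12.8% to 24.7% for Krt5. It stood at 25994, 33779, 36091, 61490 and 65751 CPM in topical controls and at 36044, 39262, 49253, 73268 and 76038 CPM in topical cKO mice. In systemic mice it stood at 24473, 38594, 44970, 49743 and 60552 CPM in controls and at 27666, 30951, 37553, 39069 and 41868 CPM in cKO. The groups overlapped under both routes. The cKO to control fold was 1.23 after topical tamoxifen (95% interval 0.779 to 1.94; edgeR adjusted p = 0.997) and 0.811 after systemic tamoxifen (95% interval 0.514 to 1.28; edgeR adjusted p = 0.718). Between routes the cKO mice gave the largest difference of Krt14, 0.647-fold in systemic against topical libraries (95% interval 0.41 to 1.02; edgeR adjusted p = 0.241), and with library totals alone this passed (log2 difference -0.61, edgeR adjusted p = 0.0249).

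**Figure D3:**
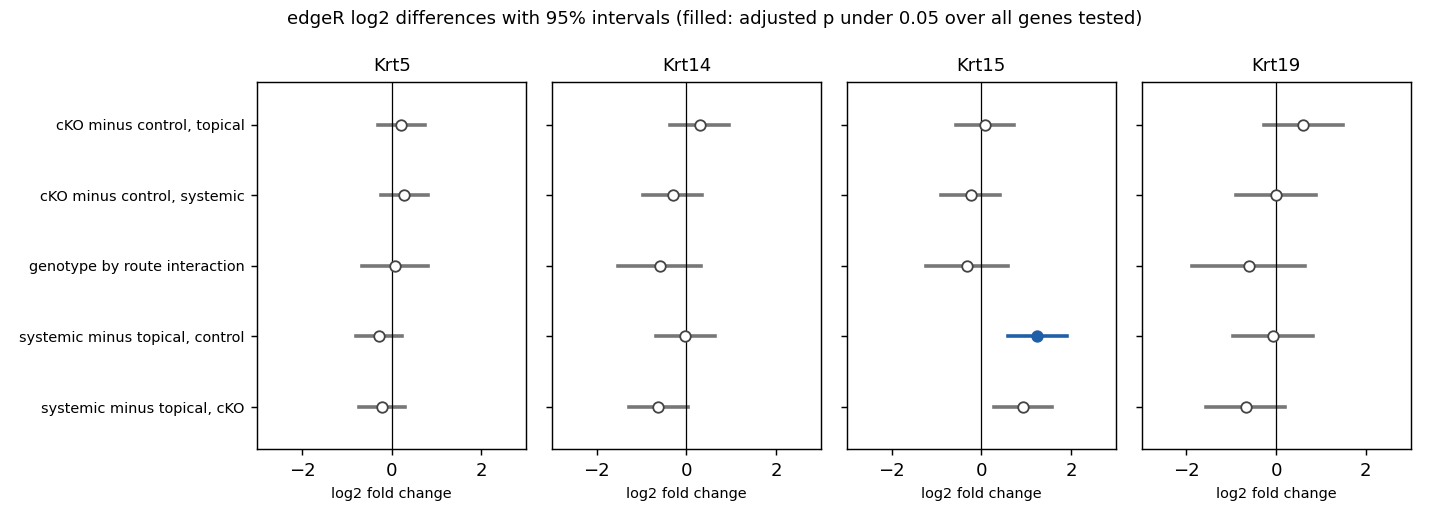
Log2 differences of the 4 genes (points) with 95% intervals (lines) from edgeR in the 5 comparisons; a filled point passed an adjusted p of 0.05 over all genes tested. Krt15 in systemic against topical controls is the filled point, at 1.25.

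The balance of the partners Krt5 and Krt14 differed with genotype after systemic tamoxifen, although neither gene passed the test by itself. The ratio of Krt5 to Krt14 counts was 0.324, 0.415, 0.443, 0.465 and 0.511 in systemic controls and 0.599, 0.601, 0.616, 0.624 and 0.719 in systemic cKO mice. The groups did not overlap, and the ratio was 1.48-fold higher in cKO mice (exact two-sided permutation p = 0.00794, adjusted p = 0.0227). After topical tamoxifen it was 0.424, 0.436, 0.547, 0.585 and 0.630 in controls and 0.424, 0.429, 0.486, 0.525 and 0.573 in cKO mice, groups that overlapped (0.935-fold, exact permutation p = 0.492, adjusted 0.656). The genotype difference itself differed between routes, by 0.66 on the log2 scale (exact permutation of genotype within routes, p = 0.00658, adjusted p = 0.0165 over 5 ratios, a test added after the values were seen). That permutation assumes no genotype difference under either route, so it does not test equal differences alone. Among cKO mice the ratio was 1.30-fold higher after systemic than topical tamoxifen without overlap (exact permutation p = 0.00794, adjusted 0.0227), and among controls 0.823-fold with overlap (exact permutation p = 0.111, adjusted 0.222).

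Satellite-like RNA also moved with genotype after systemic tamoxifen, above 50 CPM in all 5 controls and at or under it in 4 of 5 cKO libraries, and its part in the Krt5 to Krt14 difference was not tested. The 1 systemic cKO library above 50 CPM, replicate 2, had a ratio of 0.624. Systemic control replicate 1, near the cut at 79.4 CPM, had a ratio of 0.415.

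**Figure D4:**
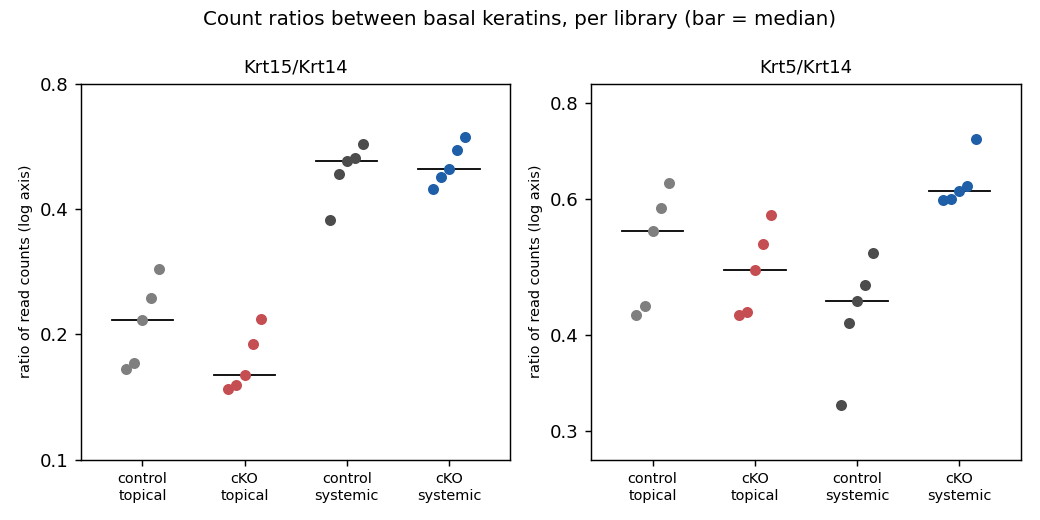
Ratio of read counts of Krt15 to Krt14 (left) and Krt5 to Krt14 (right) in each library, by group (log axes); each point is 1 mouse and the bar is the group median. The Krt15 to Krt14 ratio lies between 0.148 and 0.287 in topical and between 0.377 and 0.596 in systemic libraries, and the Krt5 to Krt14 ratio of systemic cKO libraries starts at 0.599, above the highest systemic control at 0.511.

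Set against the suprabasal pair Krt10 and Krt1, Krt14 relative to Krt10 and Krt5 relative to Krt1 were higher in cKO than in control mice after topical tamoxifen. The ratio of Krt14 to Krt10 counts was 2.11, 2.15, 2.29, 3.84 and 4.20 in topical controls and 4.24, 4.57, 5.04, 5.09 and 5.55 in topical cKO mice, and the highest control was close to the lowest cKO library. The ratio was 1.75-fold higher in cKO mice (exact permutation p = 0.00794, adjusted 0.0227). The ratio of Krt5 to Krt1 counts was 1.77, 2.34, 2.66, 3.12 and 3.88 in topical controls and 3.90, 4.99, 7.36, 7.99 and 13.4 in topical cKO mice, again without overlap (2.58-fold, exact permutation p = 0.00794, adjusted 0.0227). With 1 of the 5 topical cKO libraries left out, the adjusted p of the Krt14 to Krt10 ratio was 0.0680 to 0.113, and that of the Krt5 to Krt1 ratio rose above 0.05 only without replicate 5 (0.0529).

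After systemic tamoxifen the Krt14 to Krt10 ratio was 2.27, 3.0, 4.07, 4.28 and 5.48 in controls and 1.82, 2.24, 2.32, 2.37 and 3.7 in cKO mice, which overlapped (0.663-fold, exact permutation p = 0.0635, adjusted 0.159). The genotype difference of this ratio was lower after systemic than after topical tamoxifen (by a log2 difference of -1.4, exact permutation within routes, p = 0.00176, adjusted 0.00882 over 5 ratios, added after the values were seen). Here too the permutation assumes no genotype difference under either route. Among cKO mice the ratio was 0.496-fold in systemic against topical libraries, without overlap (exact permutation p = 0.00794, adjusted 0.0227). Without any 1 topical cKO library this call was lost, with an adjusted permutation p of at most 0.0529. The Krt5 to Krt1 ratio of systemic mice ran from 1.5 to 5.06 in controls and from 2.88 to 5.52 in cKO (exact permutation p = 0.595, adjusted 0.744).

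**Figure D5:**
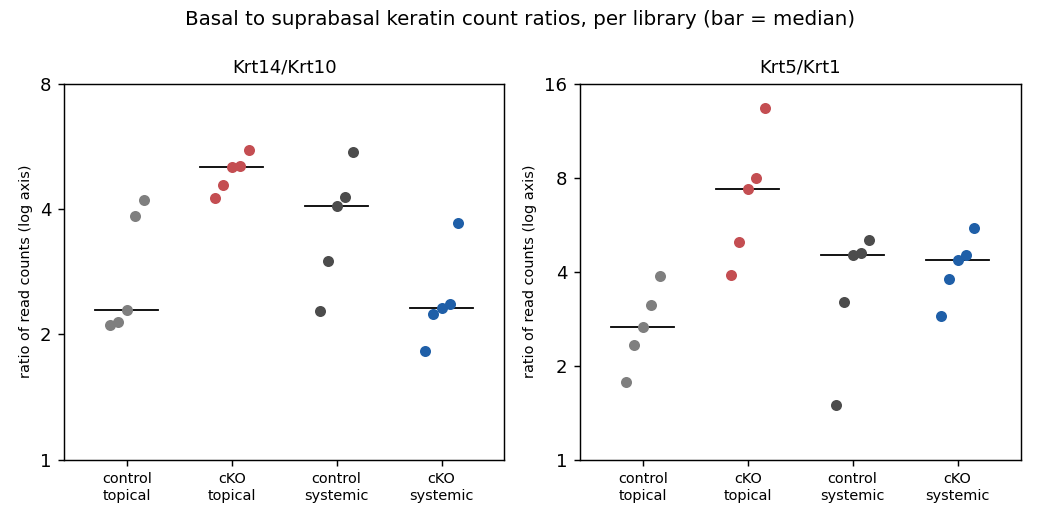
Ratio of read counts of Krt14 to Krt10 (left) and Krt5 to Krt1 (right) in each library, by group (log axes); each point is 1 mouse and the bar is the group median. Topical cKO libraries (4.24 to 5.55 and 3.90 to 13.4) lie above all topical controls (2.11 to 4.20 and 1.77 to 3.88).

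The suprabasal keratins did not pass the test by themselves between genotypes. Krt1 was 0.534-fold and Krt10 0.742-fold in topical cKO against control mice (edgeR adjusted p = 0.842 and 0.976). None of the 6 suprabasal keratins tested was called in either genotype comparison. Of all tested genes, 0.129% were called after topical and 1.89% after systemic tamoxifen. All 6 log2 differences were negative after topical tamoxifen, with a median of -0.46 against 0.02 over all genes tested. After systemic tamoxifen 4 of the 6 were positive, with a median of 0.396 against -0.0045 over all genes tested. Between routes in cKO mice 1 of the 6 was higher after systemic tamoxifen, Krt78 (log2 difference 1.6; 9.22% of all tested genes were called).

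Krt19 was at the edge of what these libraries measure, with 18 to 88 reads in each. It stood at 1.01, 1.43, 1.71, 2.44 and 2.73 CPM in topical controls and at 0.940, 0.970, 3.0, 4.79 and 5.07 CPM in topical cKO mice. In systemic mice it stood at 0.826, 1.24, 2.11, 2.24 and 2.79 CPM in controls and at 1.45, 1.58, 1.86, 1.88 and 2.12 CPM in cKO. Topical cKO libraries fell on both sides of the controls, with 2 below and 3 above every topical control, and all groups overlapped. The cKO to control fold was 1.52 after topical tamoxifen (95% interval 0.828 to 2.80; edgeR adjusted p = 0.988) and 1.0 after systemic tamoxifen (95% interval 0.536 to 1.86; edgeR adjusted p = 0.9996), wide intervals at this depth.

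Genes that act with the basal keratins were counted from lists in the same fits. Of 13 genes of basal identity and adhesion, such as Trp63 and the integrins, none was called between genotypes after topical tamoxifen (0.129% of all tested genes were called). There 12 of 13 log2 differences were positive (median 0.27, against 0.02 over all genes tested). After systemic tamoxifen 1 was called higher in cKO mice, Cdh3, which encodes P-cadherin of basal and follicle cells (1.89-fold, edgeR adjusted p = 0.00492; 1.89% of all tested genes were called), and 2 of the 13 differences were positive. With log2 satellite-like CPM as a covariate, 0 genes were called in this comparison, so that Cdh3 lost its call. Between routes in controls, 11 of the 13 differences were positive (median 0.41, against 0.00 over all genes tested). There 1 gene was called higher and 1 lower after systemic tamoxifen (18.3% of all tested genes were called). The lower one was Cdh3 (0.549-fold, edgeR adjusted p = 0.00149). In cKO mice 8 of the 13 were positive (median 0.07, against -0.01 over all genes tested). The 1 called there was Cd44, the hyaluronan receptor, lower in systemic than topical cKO mice (0.508-fold, edgeR adjusted p = 0.00587). Of all tested genes, 9.22% were called in that comparison.

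Of 6 tested genes that link keratin filaments to junctions or organise them, none was called between genotypes. Of all tested genes, 0.129% were called between genotypes after topical and 1.89% after systemic tamoxifen. Between routes, 2 of the 6 were higher after systemic tamoxifen in each genotype (18.3% of all tested genes were called in controls and 9.22% in cKO mice). Plec, which ties keratins to hemidesmosomes, and the plakin Ppl were called in controls (log2 differences 0.66 and 0.55), and Ppl and Evpl, the partner plakins of the cornified envelope, in cKO mice (log2 differences 1.0 and 0.86). The stress keratins, which keratinocytes switch on after wounding, were called in the other direction. Between routes in cKO mice 3 of 4 were lower after systemic tamoxifen (9.22% of all tested genes were called; median log2 difference -3.04): Krt6a by a log2 difference of -3.80, Krt6b of -5.34 and Krt16 of -2.28. Topical cKO libraries ran from 98.7 to 2146 CPM for Krt6a, 6.1 to 711 for Krt6b and 2472 to 32600 for Krt16. Systemic cKO libraries ran from 22.4 to 79.0, 1.7 to 11.1 and 1244 to 6068 CPM, so that Krt6b and Krt16 overlapped. Topical cKO replicate 7 was the highest for all 3. Krt17 was not called. None of the 4 was called between routes in controls (18.3% of all tested genes called) or between genotypes (0.129% topical, 1.89% systemic). Of 2 simple epithelial keratins tested, Krt7 was lower in systemic than in topical cKO mice (log2 difference -3.80; 9.22% of all tested genes called). Krt7 ran from 3.22 to 5.69 CPM in systemic and from 7.88 to 138 CPM in topical cKO libraries. Of 14 other keratins tested, Krt23 and Krt32 were higher after systemic tamoxifen. Their log2 differences were 1.5 and 1.19 in controls (18.3% of all tested genes called) and 2.60 and 1.88 in cKO mice (9.22%).

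Within routes, Krt5 and Krt14 varied together over the 10 topical libraries (log2 CPM, Pearson r = 0.961, permutation p = 2e-05, adjusted 0.00012 over 6 pairs; Spearman rho = 0.964, permutation p = 6e-05; r = 0.928 without the 2 libraries farthest from the median). Over the 10 systemic libraries r was 0.537 (permutation p = 0.114; rho = 0.382, permutation p = 0.282) and fell to 0.014 without the 2 farthest, so that it rests on those. With group means subtracted over all 20 libraries r was 0.928 after TMM scaling (permutation p = 1e-05, the smallest the permutations can give; rho = 0.932, permutation p = 1e-05) but 0.530 when counts were scaled by library total alone (permutation p = 0.0492, adjusted 0.148). Scaling factors common to both genes thus moved the correlation.

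The genes whose levels were most like those of each member, by Pearson r of log2 CPM over the 20 libraries after subtracting group means among 6030 genes, carry the same scaling. They were Usp19, Raver1, Bcas2, Dusp1 and Bmp7 for Krt5 (r = 0.858 to 0.909), and Trim17, H2aw, Bcas2, Arpc1b and Nr1h2 for Krt14 (r = 0.904 to 0.913). For Krt15 they were Shisa5, Clic1, Fos, H3f3a and Gm49909 (r = 0.878 to 0.900), and for Krt19 Adora2b, Hpgds, Akr1c18, Krt42 and Hbegf (r = 0.787 to 0.850).

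Promoter sequence was searched for Krt5 alone. The 250 bases before its start (RefSeq, GRCm38.p6) held no match on either strand to TATAAA, to the glucocorticoid receptor motif AGAACA, to the AP-1 motif TGANTCA, to the GC box GGGCGG or to the AP-2 palindrome GCCNNNGGC, which occurred in 12.4%, 16.1%, 6.75%, 32.7% and 13.7% of 32851 promoter windows of the same length. That says only that these letters are not in this window.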

How the data were processed

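Bulk RNA of sorted keratinocytes was read from 20 libraries, 1 per mouse. The authors deposited 1 table of raw counts, whole-number reads per gene; STAR, featureCounts and GRCm38 are named in the submitters' processing notes, without versions or settings. Every table column matched 1 sample by its label. The fit used edgeR 4.0.16 (R 4.3.3) on every library at once (TMM factors, filterByExpr with minimum count 10 and minimum total count 15, robust quasi-likelihood, 1 coefficient per group, two-sided tests), with Benjamini-Hochberg adjustment over 12424 genes and calls at 0.05. CPM are counts scaled to depth with TMM factors unless library totals are named; RPKM divide these by the exon length in GENCODE M21 (GRCm38). SD, SE and 95% intervals are over mice. Log2 ratios of counts were compared by exact permutation (252 arrangements), and correlations by 100000 permutations. Fits were tested on simulated data. Replicate numbers were not used to pair the mice in the main fit. Of 20 same-numbered pairs, 9 correlated over 0.1 (range -0.3135 to 0.5116). That count cannot show whether the numbers pair mice. Alternatives used DESeq2 1.42.0 and limma 3.58.1, among others. The members, lists and named genes (every called list member, or the 4 with the smallest adjusted p; the 5 genes most like each member) were chosen with earlier results of these data known. One called list member is not reported here. Sequences were read from GENCODE M21 and figures drawn with matplotlib.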

Additional observations from a re-analysis of the deposited data

Results flagged for a closer look

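Krt5 in systemic control replicate 6 (11381 CPM) lay far below the other 4 libraries of its group, and the same library had the highest TMM factor, 1.52; by library total alone its Krt5 level was 17264 CPM, within the range of its group (17012 to 23497 CPM). The log2 ratio of Krt5 to Krt14 in systemic cKO replicate 6 (-0.475) lay far above the other 4 of its group. These were 2 flags in 36 checks of groups of 5, where chance flags about 1 in 20. The genotype difference of the log2 Krt5 to Krt14 ratio was 0.66 higher after systemic than topical tamoxifen, and that of the log2 Krt14 to Krt10 ratio was lower (-1.4). Both passed the exact permutation of genotype within routes, which assumes no genotype difference under either route.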

How the results depend on the processing

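Among refits of the member tests, 483 kept the direction and side of the threshold, 38 changed sign without passing, 8 gained a call and 2 lost one. Krt15 in systemic against topical cKO mice passed with DESeq2 (log2 difference 0.926), with a mean of at least 5 CPM (0.937), with mitochondrial percent (1.06) or sex (0.968) as a covariate and with library totals alone (0.951, chosen after seeing the data), and ran from 0.791 to 1.19 with 1 library left out. Krt15 in controls lost its call with log2 satellite-like CPM (1.23) or its split at 50 CPM (1.10) as a covariate. Krt14 between routes in cKO mice passed with library totals alone (-0.611). With the replicate block, Krt15 between routes in cKO mice passed (1.08), while Krt15 in topical cKO mice (-0.260) and Krt19 between routes in controls (0.105) changed sign without passing; by within-number means the log2 ratio of Krt5 to Krt14 in topical cKO mice (0.041) and of Krt5 to Krt1 in systemic cKO mice (-0.16) also changed sign. The other changes of sign passed no test. Krt19 in systemic cKO mice was -0.0172 with upper quartile factors, -0.02 with DESeq2, -0.0147 with only the libraries compared, -0.183 and -0.174 with the satellite-like covariates, -0.0949 with sex and -0.0204 with library totals. Krt19 was -0.0548 in topical cKO mice, 0.326 for the interaction and 0.0235 between routes in cKO mice with limma, and 0.151 and 0.140 between routes in controls with the satellite-like covariates. Krt14 between routes in controls was 0.00407 with at least 5 CPM, 0.0163 with sex and 0.00401 with library totals. Krt15 was 0.0181 in systemic cKO mice with mitochondrial percent and -0.00652 in topical cKO mice with sex. By library totals the correlations of Krt19 with Krt5 (-0.236) and Krt15 (-0.172) turned negative. With 1 library left out, Krt15 in topical cKO mice ran from -0.171 to 0.223, the Krt5 interaction from -0.0645 to 0.177, Krt19 in systemic cKO mice from -0.215 to 0.201, and between routes in controls Krt14 ran from -0.179 to 0.15 and Krt19 from -0.269 to 0.147. Among log2 ratios, Krt19 to Krt14 ran from -0.302 to 0.388 in topical cKO mice, -0.118 to 0.572 between routes in cKO mice, -0.213 to 0.106 between routes in controls and -0.061 to 0.629 for the difference between routes. Krt15 to Krt14 in systemic cKO mice ran from -0.0377 to 0.113 and Krt5 to Krt1 from -0.0551 to 0.383. Krt14 to Krt10 lost its call without any 1 topical cKO library, in topical cKO mice (0.708 to 0.956) and between routes in cKO mice (-1.16 to -0.909). Krt5 to Krt1 in topical cKO mice ran from 1.13 to 1.57, and its difference between routes (-1.42 to -0.881) passed without systemic control replicate 1. Krt19 could not be fitted with a mean of at least 5 CPM, and its 18 to 88 reads a library limit its precision.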
